A study of Mus musculus with 9 samples.

Results

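The matrix proteases and their inhibitors described here are the secreted and membrane-bound enzymes that cut proteins outside the cell, and the proteins that block them. They were taken by mouse gene symbol: matrix metalloproteinases (Mmp and a number), ADAMTS proteases (Adamts and a number), ADAMTS-like proteins (Adamtsl and a digit) and the tissue inhibitors Timp1 to Timp4. The rule found 50 of 24170 genes: 22 Mmp, 19 Adamts, 5 Adamtsl and 4 Timp genes. The study sequenced poly(A) RNA of 3 mouse cell types purified and grown in primary culture, in 3 biological replicate experiments per type. Astrocytes were isolated from cortices of pups aged postnatal day 1 to 3 and kept for about 21 days, up to confluence. DRG neurons, the sensory neurons of the dorsal root ganglia, were taken from E13.5 embryos and kept for about 2 weeks. Oligodendrocyte progenitor cells (OPC) were isolated from cortices of pups aged postnatal day 6 to 9 and kept for 6 to 7 days. No treatment, allele or transgene is named for any group, and the astrocytes and OPC came from mice of either sex. Donor age and time in culture changed with cell type in every comparison, as did the tissue of origin in those with DRG, so these cannot be told apart. In RNA from a whole culture, fewer cells of a type and less RNA per cell cannot be told apart either.

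Matrix metalloproteinases are zinc enzymes made as inactive precursors; most are secreted, and the membrane-type members are held at the cell surface, where MMP14 activates MMP2. ADAMTS proteases carry thrombospondin repeats, and a group of them cuts aggrecan, brevican, neurocan and versican, the proteoglycans that fill the space between cells in the central nervous system. ADAMTS-like proteins share the repeats but have no protease domain, and TIMP proteins sit in the active site of metalloproteinases and block it. In the nervous system these genes are known for remodelling of the matrix around neurites, synapses and migrating progenitors.

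Among the membrane-type proteases and the inhibitors, different genes were highest in different cell types. Astrocytes had the highest mRNA levels of Mmp14 and Timp3, DRG those of Mmp24 and Timp2, and OPC those of Mmp15, Mmp16, Mmp17 and Timp4. Levels are CPM, the counts per 1000000 assigned reads of a library, with library sizes scaled by TMM factors. Of the 50 genes, 38 passed the filter on low counts and were tested, among 14848 genes in all. Among those tested, Adamts20, Mmp19, Mmp28 and Timp1 are listed with several transcripts and were counted by isoform-specific reads alone. Their calls enter the counts below but do not measure gene levels. The same holds for any marker or pathway gene below that is listed with several transcripts. Of the 24170 genes, 19398 were listed with 1 transcript. A difference was called at an adjusted p under 0.05, and a log2 value is a difference of levels, the first cell type minus the second. Each SE was calculated back from the test, as the size of the log2 value over the square root of its F statistic, and is not an error from the fit. Against astrocytes, 7 of the 38 (18.4%) were higher in DRG, where 27.4% of all genes tested were, and 18 (47.4%) were lower, against 32.8%. Against OPC, 13 of 38 (34.2%) were higher in DRG and 11 (28.9%) were lower, near the 28.4% and 31.1% of all genes. In OPC against astrocytes, 8 of 38 (21.1%) were higher, against 26.3%, and 18 (47.4%) were lower, against 25.5%. The comparisons share libraries, so their counts are not independent of each other. Over the 38 genes the median log2 difference was −1.46 for DRG against astrocytes, where the median of all genes was −0.13. It was 0.45 for DRG against OPC (all genes −0.08) and −1.51 for OPC against astrocytes (all genes 0.09).

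The counts by family are given beside the shares of all genes tested, and a difference between families was not tested. Between DRG and astrocytes (27.4% of all genes higher in DRG, 32.8% lower), 5 of 15 tested Mmp genes were higher in DRG and 4 were lower, and 1 of 15 Adamts genes was higher and 9 were lower. Of 4 tested Adamtsl genes 3 were lower in DRG and none was called higher, and of 4 Timp genes 1 was higher and 2 were lower. Between DRG and OPC (28.4% and 31.1% of all genes), 7 Mmp genes were higher in DRG and 3 lower, and 3 Adamts genes were higher and 6 lower. Of the Adamtsl genes 1 was called in each direction. Of the Timp genes 2 were higher (Timp2, and Timp1 by isoform-specific reads alone) and 1 lower. Between OPC and astrocytes (26.3% and 25.5% of all genes), 4 Mmp genes were higher in OPC and 7 lower. Of the Adamts genes 3 were higher and 5 lower, and 3 Adamtsl genes were lower. Of the Timp genes 1 was higher and 3 lower, with Timp1 among the lower by isoform-specific reads alone. Genes were also taken as above both other cell types when they were called and at least 2-fold higher against each. In astrocytes these were 11 of the 38 (28.9%; 13.8% of all genes tested): Adamts1, Adamts8, Adamts14, Adamtsl1, Adamtsl3, Adamtsl4, Mmp9, Mmp14, Mmp19, Mmp28 and Timp3, with Mmp19 and Mmp28 counted by isoform-specific reads alone. In OPC they were 7 (18.4%; 8.76% of all genes): Adamts7, Adamts9, Adamts16, Mmp15, Mmp16, Mmp17 and Timp4. In DRG they were 4 (10.5%; 14.8% of all genes): Adamts15, Mmp24, Mmp25 and Timp2. Calls behind this grouping were lost without at least 1 library for Adamts8, Adamts14, Mmp9, Mmp19 and Mmp28 in astrocytes and for Adamts9, Adamts16 and Mmp15 in OPC. Timp4 fell short of 2-fold against astrocytes without OPC replicate 3 (log2 0.82), still with a call (adjusted p = 0.0144).

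**Figure D1:**
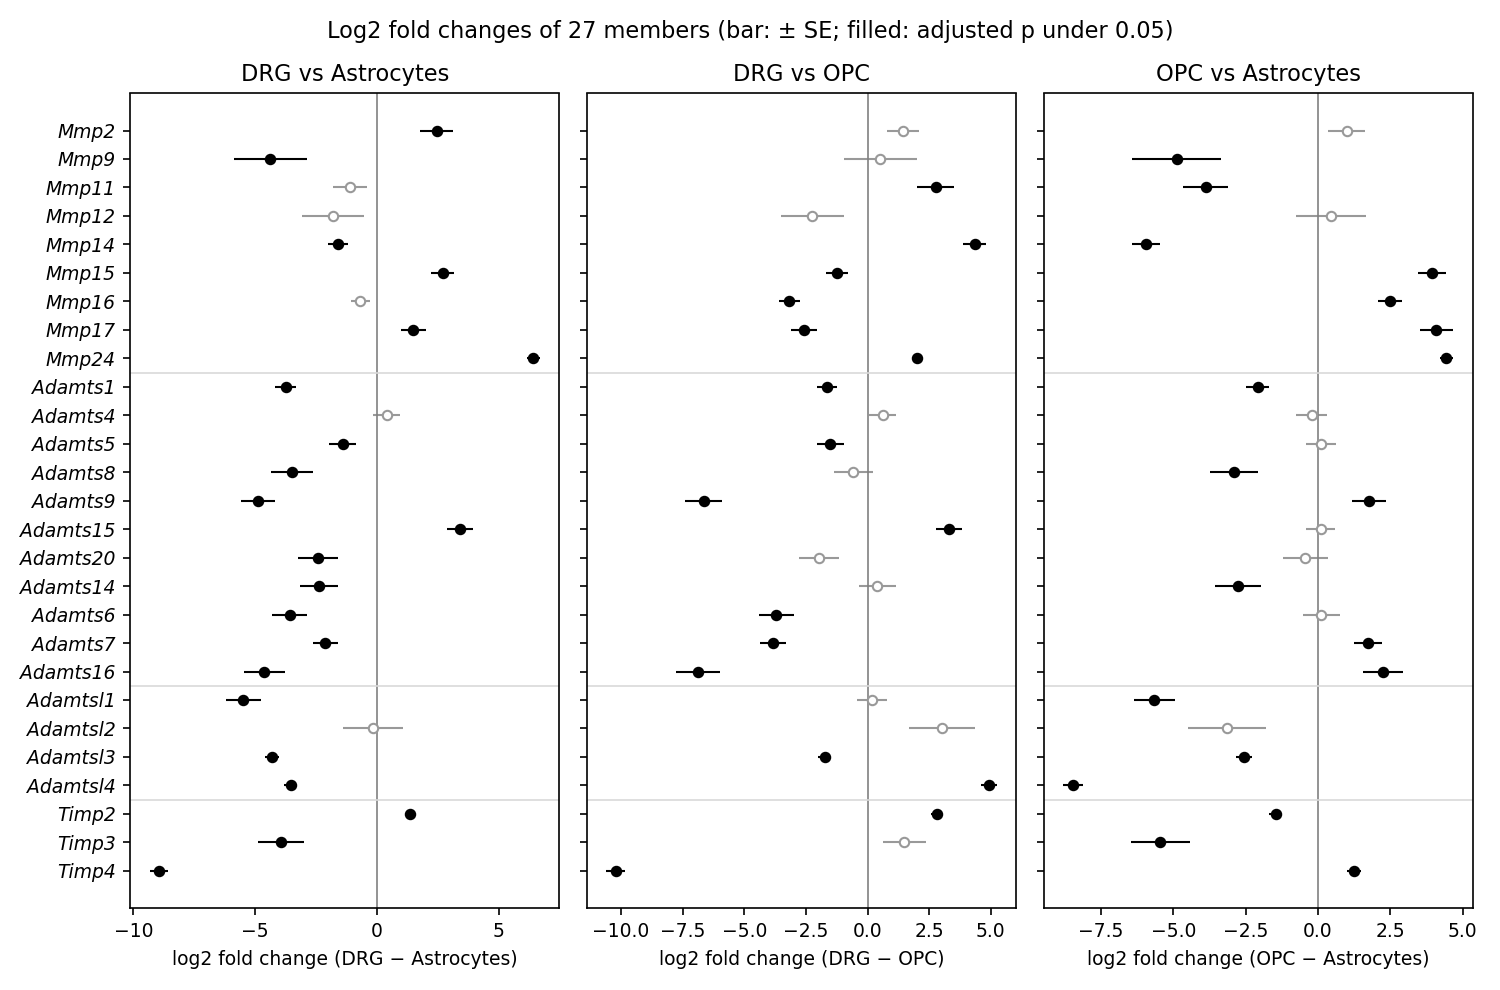
Log2 fold changes (x axis) of the 27 genes that reached a mean of 5 CPM in a cell type, in role order on the y axis, 1 panel per comparison; points are estimates, bars are ± 1 SE, and filled points have an adjusted p under 0.05. The Adamtsl and most Adamts points lie left of 0 in DRG against astrocytes, and Timp4 is the leftmost point in both comparisons with DRG.

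Assigned counts per library ran from 30710093 to 53594210. The cultures carried the markers of their labels: 7 pan-neuronal genes summed to 11191 to 12829 CPM in DRG and to 116 to 233 in the other libraries, 7 astrocyte genes to 5881 to 7318 CPM in astrocytes, 825 to 1148 in OPC and 8.32 to 24.03 in DRG, and 7 OPC genes to 5101 to 6860 CPM in OPC, 341, 1203 and 1311 in Astrocytes replicates 1 to 3 and 10.3 to 24.9 in DRG. Markers of other cells were unequal. The 7 Schwann and satellite glia genes summed to 203 to 330 CPM in DRG, 674 to 1139 in astrocytes and 1489 to 2613 in OPC. Of 6 tested, 4 were higher and 1 lower in DRG than in astrocytes (27.4% and 32.8% of all genes tested). Against OPC 3 were higher in DRG and 1 lower (28.4% and 31.1%). The 6 endothelial genes summed to 19.8 to 50.6 CPM in astrocytes, 2.21 to 8.36 in DRG and 1.55 to 1.68 in OPC. The 4 ependymal genes summed to 1181, 174 and 480 CPM in Astrocytes replicates 1 to 3, 31.0 to 60.8 in DRG and 4.03 to 5.68 in OPC. The 5 cell cycle genes summed to 153, 1617 and 1080 CPM in astrocytes, 4.75 to 7.99 in DRG and 1557 to 3984 in OPC. The 10 microglia and macrophage genes summed to 2811 CPM in Astrocytes replicate 1 against 491 and 457 in replicates 2 and 3, to 17.7, 56.1 and 210 CPM in OPC replicates 1 to 3, and to 9.66 to 18.9 in DRG. A mean of 5 CPM was reached by 7 of the 10 in astrocytes, by 5 in OPC and by 1 in DRG. The 9 fibroblast and mural genes summed to 427 CPM in Astrocytes replicate 1 against 4967 and 6240 in replicates 2 and 3, to 241 to 483 CPM in DRG and to 1.38 to 2.12 CPM in OPC. In astrocytes Acta2, a contractile-cell actin, was 413, 4639 and 5998 CPM of these sums, and Pdgfrb was at 0 counts in OPC. If Pdgfrb is listed with several transcripts, that 0 does not tell whether it was expressed. The part of these cells in the results was not tested, and a call of these genes that changed without Astrocytes replicate 1 or any other library is given with its value there.

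The gelatinases Mmp2 and Mmp9 degrade denatured collagen and basement membrane. Mmp2 (chr8:92827290-92853421; all gene positions are on GRCm38) was at 3.44, 10.2 and 9.32 CPM in Astrocytes replicates 1 to 3, at 61.7, 18.1 and 45.5 CPM in DRG, and at 5.39, 25.8 and 14.6 CPM in OPC. All 3 DRG libraries lay above all astrocyte libraries, and DRG and OPC overlapped. Mmp2 was higher in DRG than in astrocytes (log2 2.45, SE 0.67, adjusted p = 0.0108). Against OPC it missed the threshold (log2 1.45, SE 0.64, adjusted p = 0.0789), and passed it without DRG replicate 2 (0.0437), without OPC replicate 2 (0.0418) and with DESeq2 (0.0215). OPC and astrocytes overlapped, with a log2 difference of 1.00 (adjusted p = 0.221). Mmp9 (chr2:164940326-164955850) was at 17.9, 0.499 and 0.442 CPM in Astrocytes replicates 1 to 3. It was at 0.575, 0.295 and 0.0516 CPM in DRG and at 0.0894, 0.366 and 0.168 CPM in OPC, so a single astrocyte library stood far above the other 8. The fit called it lower in DRG (log2 −4.37, SE 1.51, adjusted p = 0.0306) and in OPC (log2 −4.88, SE 1.54, adjusted p = 0.0251) than in astrocytes. Without Astrocytes replicate 1 these differences were −0.65 (adjusted p = 0.522) and −1.15 (adjusted p = 0.286). Both calls were also lost without any single library of the lower group (adjusted p = 0.0521 to 0.0910 for DRG, and 0.0558 to 0.0788 for OPC).

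Mmp12, the macrophage elastase, overlapped between all 3 cell types. Its levels were 45.4, 0.974 and 7.68 CPM in astrocytes, 9.61, 1.89 and 4.11 CPM in DRG, and 8.70, 7.20 and 57.9 CPM in OPC. Its highest libraries were OPC replicate 3 and Astrocytes replicate 1, the libraries of their cell types with the most microglia markers. DRG replicate 1 was also the highest of its cell type for both. Elsewhere the orders differed: Astrocytes replicate 2 had 491 CPM of those markers and the lowest Mmp12 of all libraries. Mmp12 was higher in OPC replicate 1 (markers at 17.7 CPM) than in OPC replicate 2 (56.1 CPM). Csf1r, the receptor that microglia need for survival, was at 734, 136 and 118 CPM in astrocytes and at 2.15, 8.30 and 17.7 CPM in OPC. No comparison of Mmp12 passed the test (log2 −1.80, adjusted p = 0.246 for DRG against astrocytes; −2.25, 0.158 for DRG against OPC; 0.45, 0.783 for OPC against astrocytes). The part of microglia in the levels of Mmp9 and Mmp12 was not tested.

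**Figure D2:**
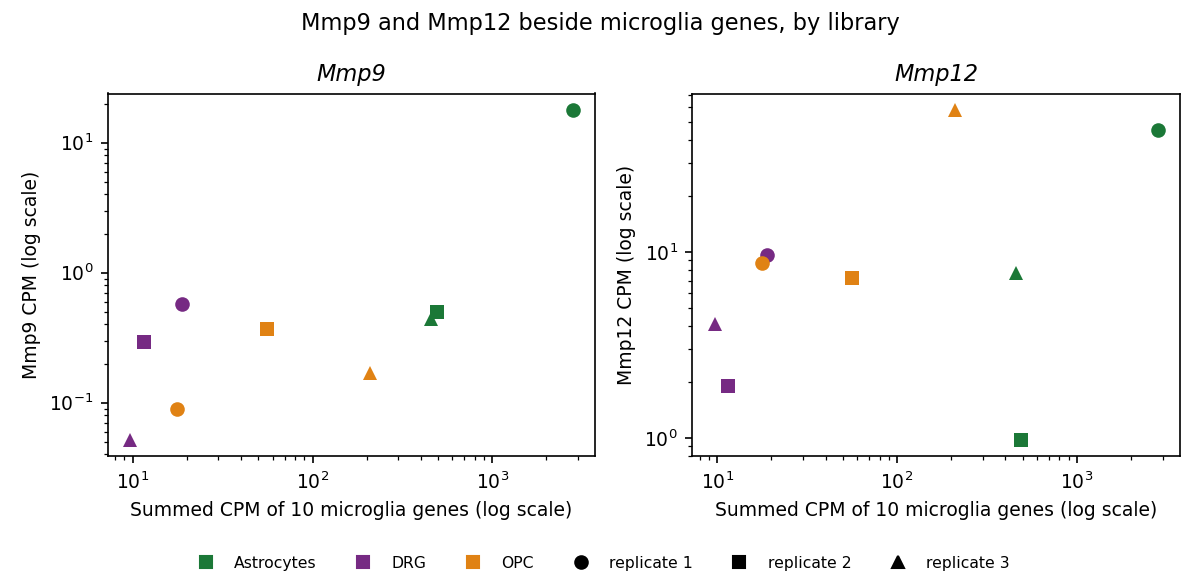
Mmp9 (left) and Mmp12 (right) in CPM on the y axis against the summed CPM of 10 microglia and macrophage genes on the x axis, both log scales, 1 point per library, coloured by cell type and shaped by replicate. Astrocytes replicate 1 stands at the upper right for Mmp9 (17.9 CPM beside 2811), and OPC replicate 3 has the highest Mmp12 (57.9 CPM beside 210).

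Mmp12 belongs to a block of 9 metalloproteinase genes on chromosome 9 (chr9:7272514-7699585), which also holds the collagenases Mmp1a, Mmp1b, Mmp8 and Mmp13, the stromelysins Mmp3 and Mmp10, the matrilysin Mmp7 and the enamel protease Mmp20. Apart from Mmp12 they had 542 counts in all 9 libraries together, and the highest mean of any of them was 1.47 CPM, for Mmp3 in DRG. Mmp1b and Mmp7 had 0 counts, which allows up to 0.0228 CPM in astrocytes, 0.0259 in DRG and 0.0222 in OPC (3 counts over the 3 libraries of a group, for counting error only). Only Mmp3, Mmp12 and Mmp13 passed the filter. Mmp3 had counts of 45, 43 and 20 in astrocytes, 46, 30 and 86 in DRG, and 6, 0 and 1 in OPC. It was lower in OPC than in DRG (adjusted p = 0.00174) and astrocytes (adjusted p = 0.00613). Mmp13, at 98, 2 and 8 counts in astrocytes, 15, 17 and 47 in DRG and 9, 5 and 19 in OPC, passed in none.

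Promoters of the block and of other members are shown to compare the short motifs that they hold. RefSeq (GRCm38.p6) promoters were at hand for 35 of the 50 genes, here cut to the 250 bases before each annotated start. There was none for Mmp2, Mmp9, Mmp16, Mmp17, Mmp19, Adamts4, Adamts5, Adamts6, Adamts7, Adamts8, Adamts10, Adamts15, Adamts16, Adamts19 or Adamtsl1. The counts below leave these genes out and say nothing of their motifs. The letters TGANTCA, the binding motif of the AP-1 transcription factors, read the same on both strands. They occurred before a start of 8 of the 9 genes in the block (88.9%), in 0 of the other 26 and in 6.75% of all 32851 promoter windows. TATAAA, searched on the gene's strand in the 60 bases before the start, occurred in 7 of 9 (77.8%), in 2 of the other 26 (Adamts1 and Adamtsl2) and in 2.87% of windows. Both motifs stood before the start in 7 of 9, in 0 of 26 and in 0.381% of windows. CpG dinucleotides had a median of 1 per gene in the block, 16 in the other 26 genes and 6 over all windows. For motifs and CpG alike, a gene with several annotated starts was counted by its highest window. The values over all windows count each window singly, so the 2 are not fully alike. These are matches of letters, not measured binding, and genes of a block that arose by duplication share ancestry and are not independent. Shown are Mmp3 (chr9:7445572-7445821, plus strand), Mmp13 (chr9:7272264-7272513, plus strand) and Mmp10 (chr9:7502092-7502341, plus strand) from the block, then Mmp14 (chr14:54431348-54431597, plus strand) and Mmp24 (chr2:155775092-155775341, plus strand), which had neither motif. Capitals mark TGANTCA and TATAAA.
Mmp3: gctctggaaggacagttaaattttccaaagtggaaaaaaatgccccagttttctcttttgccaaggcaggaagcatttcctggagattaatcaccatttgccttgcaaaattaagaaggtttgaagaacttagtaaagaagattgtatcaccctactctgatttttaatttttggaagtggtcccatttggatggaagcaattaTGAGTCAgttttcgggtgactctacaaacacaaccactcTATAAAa
Mmp13: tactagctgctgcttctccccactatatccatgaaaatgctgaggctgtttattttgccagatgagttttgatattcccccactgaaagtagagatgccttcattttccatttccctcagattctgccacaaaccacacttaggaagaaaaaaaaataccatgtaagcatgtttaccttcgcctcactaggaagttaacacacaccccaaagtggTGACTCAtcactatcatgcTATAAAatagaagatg
Mmp10: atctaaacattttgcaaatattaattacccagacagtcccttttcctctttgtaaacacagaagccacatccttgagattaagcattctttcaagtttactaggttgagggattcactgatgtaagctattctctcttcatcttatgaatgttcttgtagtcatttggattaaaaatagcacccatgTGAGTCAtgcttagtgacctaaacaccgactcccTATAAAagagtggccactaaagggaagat
Mmp14: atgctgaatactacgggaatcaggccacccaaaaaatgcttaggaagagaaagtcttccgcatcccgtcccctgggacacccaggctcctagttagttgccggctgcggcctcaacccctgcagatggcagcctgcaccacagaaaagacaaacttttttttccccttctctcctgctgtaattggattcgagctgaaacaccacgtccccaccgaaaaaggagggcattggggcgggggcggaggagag
Mmp24: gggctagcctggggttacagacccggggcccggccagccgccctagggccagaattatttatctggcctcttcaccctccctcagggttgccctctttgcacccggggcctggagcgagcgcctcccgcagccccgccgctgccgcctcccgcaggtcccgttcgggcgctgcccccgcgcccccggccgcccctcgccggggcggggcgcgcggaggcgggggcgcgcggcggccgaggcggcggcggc
The TGANTCA match began 46 bases before the start in Mmp3, 35 in Mmp13 and 63 in Mmp10. The distances depend on the annotated starts, and a lack of a match says only that these letters are not in this window.

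Mmp11, a stromelysin-type protease known from stromal cells around tumours, was at 23.1, 10.7 and 14.2 CPM in astrocytes, 16.3, 3.52 and 2.40 CPM in DRG, and 0.604, 1.36 and 1.30 CPM in OPC. Every astrocyte and DRG library lay above every OPC library. It was lower in OPC than in the astrocytes (log2 −3.88, SE 0.77, adjusted p = 0.00287) and higher in DRG than in OPC (log2 2.76, SE 0.74, adjusted p = 0.0101). The difference from OPC was 1.44 without DRG replicate 1, the high library. DRG and astrocytes overlapped (log2 −1.11, adjusted p = 0.193), and without DRG replicate 1 the difference was called (log2 −2.43, adjusted p = 0.00471). Exons of Chchd10, on the opposite strand, cover 5.58% of the exonic bases of Mmp11. Chchd10 was at 69.6 ± 48.0, 96.1 ± 57.3 and 2.78 ± 1.36 CPM (SD, n = 3) in astrocytes, DRG and OPC. The strand setting of the counting was not given in the sources used here, so reads in such an overlap cannot be told apart.

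The membrane-type proteases carried most of the Mmp mRNA in each cell type; the main member per kilobase was Mmp14 in astrocytes and Mmp15 in DRG and OPC. Mmp14 (chr14:54431598-54442456), the activator of MMP2 and a collagenase at the cell surface, was at 141, 273 and 162 CPM in astrocytes. It was at 37.9, 95.3 and 57.6 CPM in DRG and at 3.55, 1.89 and 3.95 CPM in OPC. The 3 groups did not overlap, with astrocytes highest and OPC lowest. Mmp14 was lower in DRG than in astrocytes (log2 −1.60, SE 0.41, adjusted p = 0.00778). Its DRG level exceeded that of OPC (log2 4.35, SE 0.46, adjusted p = 5.9e-05), and it was lower in OPC than in the astrocytes (log2 −5.94, SE 0.50, adjusted p = 3.5e-05). The fibroblast and mural markers were higher in DRG than in OPC for 8 of 8 tested, where 28.4% of all genes tested were. Between DRG and astrocytes 3 of 8 were higher in DRG and 2 lower (median log2 1.33), against 27.4% and 32.8% of all genes. The high astrocyte sums were mostly Acta2. The part of fibroblast and mural cells in the Mmp14 level was not tested.

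Mmp15 (chr8:95352296-95374293), a membrane-anchored relative of Mmp14, was at 96.5, 95.2 and 137 CPM in astrocytes. DRG had 267, 1127 and 747 CPM and OPC had 1280, 1854 and 1898 CPM, so the order of the groups was the reverse of that of Mmp14, again without overlap. It was higher in DRG (log2 2.70, SE 0.47, adjusted p = 0.000954) and in OPC (log2 3.93, SE 0.49, adjusted p = 0.000258) than in astrocytes. The step from DRG to OPC was smaller and unsure (DRG against OPC log2 −1.23, SE 0.45, adjusted p = 0.0375). That call was lost without DRG replicate 3 (adjusted p = 0.0821), OPC replicate 2 (0.0899) or OPC replicate 3 (log2 −0.89, 0.173), with relative log expression size factors (0.0608) and in a fit of the 6 libraries alone (0.0511).

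Mmp16 (chr4:17853072-18117479), another membrane-anchored member, was at 25.3, 29.1 and 34.5 CPM in astrocytes, 19.5, 15.3 and 20.8 CPM in DRG, and 246, 183 and 70.4 CPM in OPC. All OPC libraries lay above the other 6, with OPC replicate 3 the lowest of them. Mmp16 was higher in OPC than in the astrocytes (log2 2.49, SE 0.40, adjusted p = 0.000949) and lower in DRG than in OPC (log2 −3.17, SE 0.41, adjusted p = 0.00019). The smaller difference between DRG and astrocytes missed the threshold (log2 −0.68, SE 0.38, adjusted p = 0.154) although the groups did not overlap, and passed it without OPC replicate 3 (log2 −0.59, adjusted p = 0.0294) or with the 6 libraries alone (0.0431). Mmp17 (chr5:129584151-129611099), which is held by a lipid anchor, was at 2.73, 7.65 and 5.89 CPM in astrocytes, 21.3, 19.4 and 5.27 CPM in DRG, and 80.4, 92.1 and 103 CPM in OPC. OPC again lay above both others (log2 4.09, SE 0.57, adjusted p = 0.000437 against astrocytes; DRG against OPC log2 −2.59, SE 0.53, adjusted p = 0.00249). DRG and astrocytes overlapped, and the call of a higher level in DRG (log2 1.50, SE 0.52, adjusted p = 0.0307) was lost without Astrocytes replicate 1, Astrocytes replicate 3, DRG replicate 1 or DRG replicate 2 (adjusted p = 0.0673 to 0.0988), with library size alone (0.0641) and with the 6 libraries alone (0.0627).

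Mmp24 (chr2:155775342-155818367), a membrane-type protease known for its expression in neurons, was at 94.0, 101 and 111 CPM in DRG. OPC had 21.6, 25.6 and 29.9 CPM and astrocytes 1.05, 1.47 and 1.02 CPM. The groups did not overlap and the replicates of each lay close together. Mmp24 was higher in DRG than in astrocytes (log2 6.43, SE 0.26, adjusted p = 6.01e-07) and OPC (log2 1.99, SE 0.21, adjusted p = 5.51e-05), while the OPC level exceeded that of astrocytes (log2 4.44, SE 0.24, adjusted p = 4.8e-06). Exons of a gene on the opposite strand, BC029722, cover 13.6% of its exonic bases. Mmp25, the other member with a lipid anchor, was at 20, 106 and 106 counts in DRG, 1, 8 and 1 in astrocytes and 0, 9 and 4 in OPC. At these counts it was higher in DRG than in astrocytes (log2 4.55, SE 1.07, adjusted p = 0.00502) and OPC (log2 4.28, SE 1.04, adjusted p = 0.00608).

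**Figure D3:**
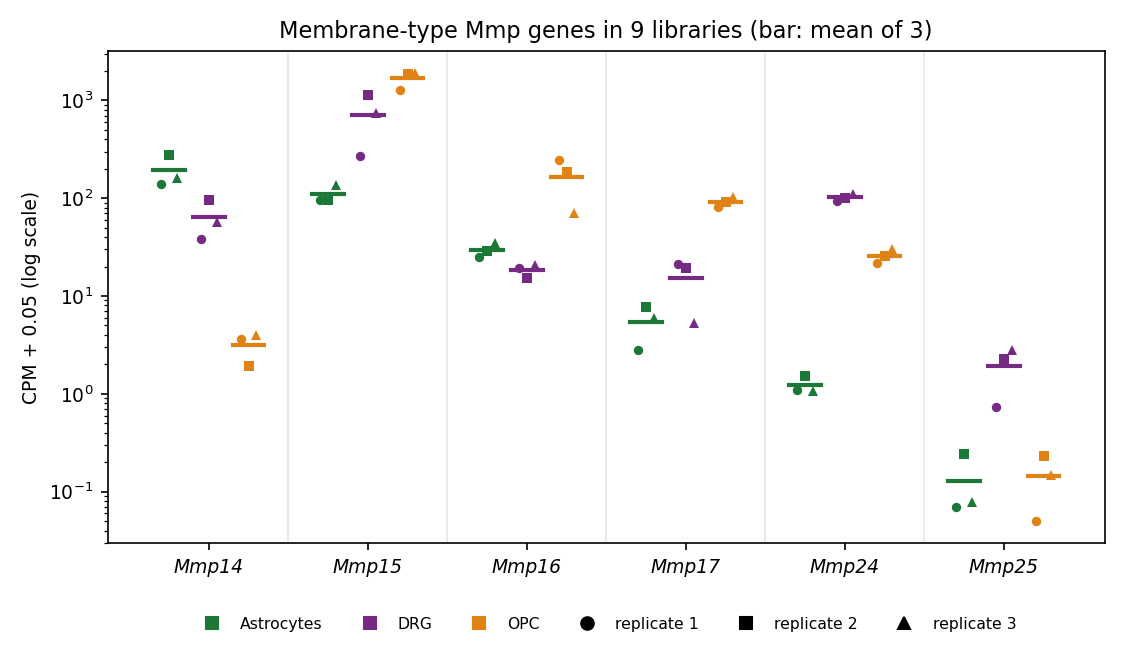
CPM plus 0.05 on a log y axis for the 6 membrane-type Mmp genes (x axis) in the 9 libraries, coloured by cell type and shaped by replicate, with a bar at each mean. From astrocytes to DRG to OPC the means of Mmp14 go down and those of Mmp15 go up, and Mmp24 is highest in DRG at 94.0 to 111 CPM.

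Levels were compared between genes per kilobase of transcript (CPM per kb) over the 42 genes counted through a single transcript. On that scale membrane-type members were 84.4 ± 11.6% of the summed Mmp level in astrocytes, 87.8 ± 11.3% in DRG and 96.9 ± 1.81% in OPC (SD, n = 3). Mmp14 took 71.1 ± 8.21% of the membrane-type sum in astrocytes, 13.1 ± 2.05% in DRG and 0.326 ± 0.135% in OPC. Mmp15 took 21.8 ± 6.90%, 68.0 ± 12.0% and 85.1 ± 6.06%, so it was the main membrane-type member in DRG and OPC but not in astrocytes. The share of Mmp24 was 14.6 ± 7.43% in DRG, 1.57 ± 0.142% in OPC and 0.272 ± 0.0344% in astrocytes. The Mmp sum itself was 120 ± 17.5 CPM per kb in astrocytes, 214 ± 83.9 in DRG and 394 ± 62.3 in OPC.

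Of the remaining metalloproteinases, Mmp19, Mmp23 and Mmp28 reached at most 1.04 CPM in a cell type. Mmp19 and Mmp28 are listed with 2 transcripts each and were counted by isoform-specific reads alone, so these values and calls do not measure the level of either gene. Mmp19 was higher in astrocytes than in OPC (adjusted p = 0.000444) and DRG (adjusted p = 0.035), and higher in DRG than in OPC (adjusted p = 0.00243). The call against DRG was lost without any of 6 libraries (adjusted p = 0.0585 to 0.112). Mmp23 was lower in OPC than in the astrocytes (adjusted p = 0.0062) and just so against DRG (adjusted p = 0.0482, lost without any of 7 libraries). Mmp28, at 18, 10 and 10 counts in astrocytes against 0, 2 and 1 in DRG and 3, 0 and 3 in OPC, was called lower in DRG (adjusted p = 0.00872) and OPC (adjusted p = 0.0217). The latter was lost without Astrocytes replicate 3 (0.0522) or OPC replicate 2 (0.0524). Mmp21 had 1 count in all libraries together.

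Among the ADAMTS proteases that cut aggrecan-type proteoglycans, the genes split between the 3 cell types. Adamts1 (chr16:85793827-85803113) was at 159, 400 and 234 CPM in astrocytes, 20.7, 10.8 and 27.7 CPM in DRG, and 73.5, 57.4 and 55.4 CPM in OPC. The groups did not overlap, with astrocytes highest and DRG lowest. Adamts1 was lower in DRG than in astrocytes (log2 −3.74, SE 0.44, adjusted p = 9.54e-05) and OPC (log2 −1.65, SE 0.40, adjusted p = 0.00608), and lower in OPC than in the astrocytes (log2 −2.09, SE 0.41, adjusted p = 0.00248). Its neighbour Adamts5 (chr16:85858157-85901125), the main aggrecan-cutting enzyme of cartilage, was at 21.6, 56.1 and 43.2 CPM in astrocytes, 18.3, 6.57 and 20.7 CPM in DRG, and 71.6, 31.1 and 27.2 CPM in OPC. All DRG libraries lay below the other 6. The calls of a lower level in DRG were near the threshold (log2 −1.41, SE 0.54, adjusted p = 0.0471 against astrocytes; log2 −1.51, SE 0.54, adjusted p = 0.0365 against OPC). The first was lost without any of 7 libraries (adjusted p = 0.0535 to 0.140) and the second without any of 5 (0.0506 to 0.153, the highest without OPC replicate 1, at log2 −0.95). Adamts4, the other well-known aggrecan-cutting enzyme, was at 1.49 to 7.62 CPM in astrocytes, 4.60 to 5.89 in DRG and 2.34 to 4.45 in OPC. No comparison of it passed the test (adjusted p = 0.349 to 0.758).

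Adamts9 (chr6:92772699-92944450), a protease of versican and aggrecan, was at 39.4, 66.4 and 58.5 CPM in astrocytes, 4.09, 0.547 and 1.06 CPM in DRG, and 246, 155 and 160 CPM in OPC. The groups did not overlap, and OPC stood highest. Adamts9 was lower in DRG than in astrocytes (log2 −4.88, SE 0.68, adjusted p = 0.000286) and OPC (log2 −6.65, SE 0.74, adjusted p = 7.57e-05), and further still without DRG replicate 1 (log2 −6.09 and −7.87). The call of a higher level in OPC than in the astrocytes (log2 1.77, SE 0.59, adjusted p = 0.0308) was lost without any single astrocyte or OPC library (adjusted p = 0.0508 to 0.0853). Adamts20, the relative closest to Adamts9, was counted through 3 transcripts by isoform-specific reads alone. It was at 12.9, 1.28 and 2.43 CPM in astrocytes, 1.18, 0.653 and 1.27 CPM in DRG, and 5.32, 4.80 and 2.14 CPM in OPC, with Astrocytes replicate 1 far above the rest. Its lower level in DRG than in astrocytes (log2 −2.42, SE 0.82, adjusted p = 0.0289) was −0.85 without that library (adjusted p = 0.187) and was also lost without any DRG library (0.0625 to 0.0960). Against OPC it missed the threshold (log2 −1.99, adjusted p = 0.0598), although all OPC libraries lay above all DRG libraries, and passed it without Astrocytes replicate 1 (0.00573) or replicate 2 (0.0285), with DESeq2 (0.0379), with library size alone (0.0479) and with the 6 libraries alone (0.00762).

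Adamts8 and Adamts15, neighbours on chromosome 9 (chr9:30942562-30963838 and chr9:30899155-30922452), were highest in different cell types. Adamts8 was at 9.82, 51.7 and 67.4 CPM in astrocytes, 1.22, 8.19 and 1.96 CPM in DRG, and 4.36, 6.76 and 5.99 CPM in OPC. DRG had a lower level than astrocytes (log2 −3.49, SE 0.85, adjusted p = 0.00612; −4.73 without DRG replicate 2). It was also lower in OPC than in the astrocytes (log2 −2.91, SE 0.83, adjusted p = 0.016), a call lost without Astrocytes replicate 3 (0.0520) or OPC replicate 1 (0.0555). DRG and OPC overlapped (log2 −0.58, adjusted p = 0.544). Adamts15 was at 32.5, 11.7 and 15.9 CPM in DRG, against 1.79, 1.92 and 1.96 CPM in astrocytes and 0.849, 2.46 and 2.77 CPM in OPC. It was the one Adamts gene higher in DRG than in astrocytes (log2 3.40, SE 0.54, adjusted p = 0.000569), and it was higher in DRG than in OPC as well (log2 3.30, SE 0.53, adjusted p = 0.000643). Between OPC and astrocytes it differed by log2 0.10 (adjusted p = 0.885).

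Adamts2, Adamts3 and Adamts14 are procollagen peptidases, which trim the amino end of fibrillar procollagens. Adamts14 (chr10:61197112-61273419) was at 4.72, 19.0 and 5.06 CPM in astrocytes, 3.65, 1.16 and 0.800 CPM in DRG, and 0.648, 1.99 and 1.59 CPM in OPC. All astrocyte libraries lay above the other 6, and Astrocytes replicate 2 stood out. Adamts14 was lower in DRG (log2 −2.37, SE 0.78, adjusted p = 0.025) and OPC (log2 −2.76, SE 0.79, adjusted p = 0.016) than in astrocytes. Without Astrocytes replicate 2 the differences were −1.40 (adjusted p = 0.117) and −1.79 (adjusted p = 0.0616). The calls were also lost without DRG replicate 2 (0.0864) or 3 (0.0807), and without OPC replicate 1 (0.0529). Without DRG replicate 1 the difference of DRG from astrocytes was −3.28. DRG and OPC overlapped (log2 0.40, adjusted p = 0.669). Adamts2, at a mean of 1.34 CPM or less, was lower in OPC than in the astrocytes (adjusted p = 0.00964) and DRG (adjusted p = 0.0175, lost without OPC replicate 2 at 0.0540). Adamts3, listed with 2 transcripts, had 14 isoform-specific counts or fewer in DRG and OPC, which do not measure its level, and was not tested.

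Other ADAMTS genes leaned towards the glial cultures. Adamts7 (chr9:90162904-90200102), a protease of cartilage matrix proteins, was at 35.1, 34.6 and 33.1 CPM in OPC, 3.10, 14.8 and 13.0 CPM in astrocytes, and 2.40, 1.98 and 2.74 CPM in DRG. The groups did not overlap, and each difference was called (OPC against astrocytes log2 1.74, SE 0.49, adjusted p = 0.0148; DRG against astrocytes −2.12, SE 0.50, adjusted p = 0.00507; DRG against OPC −3.85, SE 0.53, adjusted p = 0.000261). Adamts16 (chr13:70727798-70841845) was at 10.01, 6.37 and 15.9 CPM in OPC, 4.18, 0.689 and 1.91 CPM in astrocytes, and 0.169, 0.0842 and 0.0258 CPM in DRG, or 10 counts in the 3 DRG libraries. It was lower in DRG than in astrocytes (log2 −4.62, SE 0.84, adjusted p = 0.00126) and OPC (log2 −6.87, SE 0.89, adjusted p = 0.000186). The first of these was −3.83 without Astrocytes replicate 1 and −5.24 without DRG replicate 1, and the second was −7.49 without DRG replicate 1 and −6.23 without OPC replicate 3. Its higher level in OPC than in the astrocytes (log2 2.25, SE 0.68, adjusted p = 0.0213) was 3.05 without Astrocytes replicate 1 and was lost without Astrocytes replicate 3 (0.0696) or OPC replicate 3 (0.0968). Adamts6 (chr13:104286518-104496695), a regulator of fibrillin matrix, was at 6.02 to 9.66 CPM in astrocytes, 3.39 to 14.7 in OPC and 0.284 to 1.39 in DRG. Every DRG library lay below the other 6 (log2 −3.59, SE 0.72, adjusted p = 0.00222 against astrocytes; −3.70, SE 0.73, adjusted p = 0.00192 against OPC). These became −4.55 and −4.67 without DRG replicate 1. Astrocytes and OPC overlapped (log2 0.11, adjusted p = 0.901).

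Low ADAMTS genes that were tested were Adamts12, Adamts17 and Adamts18. Adamts12, at 3.27 CPM in astrocytes, was lower in OPC than in the astrocytes (adjusted p = 0.000997) and DRG (adjusted p = 0.00553). Its difference between DRG and astrocytes (adjusted p = 0.0844) passed without Astrocytes replicate 1 (0.0499). Adamts17, at 2.04 CPM or less, passed no comparison with all libraries, and was lower in DRG without DRG replicate 1 (adjusted p = 0.0312 against astrocytes and 0.0325 against OPC). Adamts18, at 0.492 CPM or less, passed none with all libraries. It was called lower in DRG than in astrocytes without Astrocytes replicate 1 (0.0370) or DRG replicate 2 (0.0347), and lower in OPC without Astrocytes replicate 1 (0.0433) or DRG replicate 1 (0.0380). Adamts19 reached 0.50 CPM in OPC and was not tested. Adamts10 and Adamts13, the protease of von Willebrand factor, are listed with several transcripts each and had 0 counts. Reads shared by their transcripts were set aside, so these counts do not tell whether the genes were expressed.

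The ADAMTS-like genes, whose products lie in the matrix and for Adamtsl2 and Adamtsl4 bind fibrillin microfibrils, were highest in astrocytes for 3 of the 4 tested. Adamtsl3 (chr7:82335399-82614450) was at 157, 240 and 273 CPM in astrocytes, 14.1, 9.41 and 10.3 CPM in DRG, and 44.6, 39.6 and 29.3 CPM in OPC. The groups did not overlap, and it was lower in DRG (log2 −4.31, SE 0.30, adjusted p = 5.26e-06) and OPC (log2 −2.56, SE 0.28, adjusted p = 0.000111) than in astrocytes, and lower in DRG than in OPC (log2 −1.75, SE 0.27, adjusted p = 0.000484). Adamtsl1 (chr4:85513852-86428390) was at 92.2, 20.3 and 50.9 CPM in astrocytes and at 0.442 to 1.66 CPM in the 6 libraries of DRG and OPC. Its difference from astrocytes was log2 −5.48 in DRG (SE 0.71, adjusted p = 0.000174) and −5.66 in OPC (SE 0.71, adjusted p = 0.000261), or −4.88 and −5.04 without Astrocytes replicate 1. DRG and OPC overlapped (log2 0.17, adjusted p = 0.826). Adamtsl4 (chr3:95676201-95687927) was at 35.4, 35.6 and 41.0 CPM in astrocytes, 3.59, 2.32 and 3.72 CPM in DRG, and 0.112, 0.102 and 0.0962 CPM in OPC, or 14 counts in the 3 OPC libraries. The groups stood far apart (DRG against astrocytes log2 −3.54, SE 0.27, adjusted p = 8.59e-06; DRG against OPC 4.91, SE 0.32, adjusted p = 5.29e-06; OPC against astrocytes −8.46, SE 0.35, adjusted p = 3.46e-06). Adamtsl2 (chr2:27079336-27108981) differed inside the groups, at 0.0564, 16.0 and 14.7 CPM in astrocytes, 19.5, 4.42 and 3.74 CPM in DRG, and 0.917, 1.08 and 1.44 CPM in OPC. With 3 counts in Astrocytes replicate 1, no comparison of it passed (adjusted p = 0.0766 to 0.923). Without that library it was lower in OPC than in the astrocytes (log2 −3.74, adjusted p = 0.0023) and higher in DRG than in OPC (log2 3.00, adjusted p = 0.00305), and DESeq2 called both with all libraries (0.0124 and 0.0122). Adamtsl5, with reads of 1 of its 3 listed transcripts only, reached 0.202 CPM in astrocytes and was not tested.

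**Figure D4:**
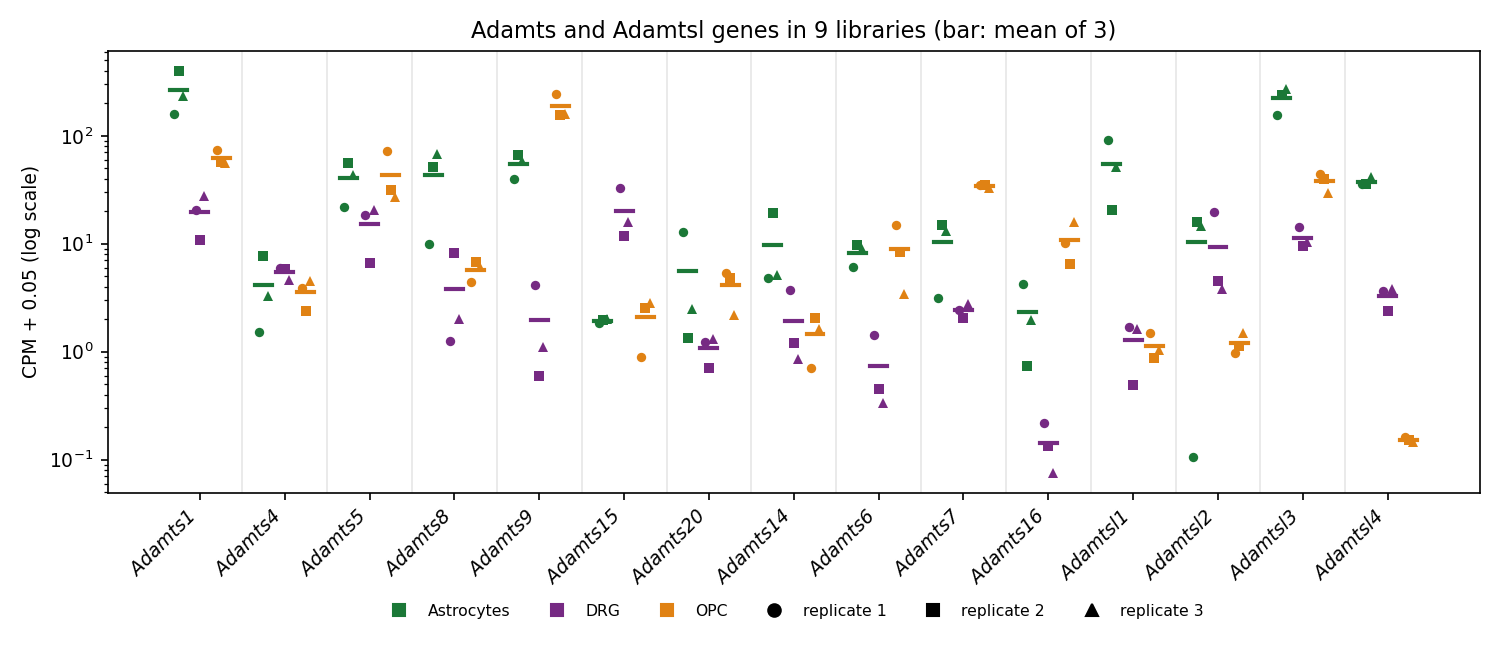
CPM plus 0.05 on a log y axis for 11 Adamts and 4 Adamtsl genes (x axis, in role order) in the 9 libraries, coloured by cell type and shaped by replicate, with a bar at each mean. DRG libraries are the lowest for Adamts1, Adamts5, Adamts9, Adamts6 and Adamts16, and the highest for Adamts15.

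Timp2 and Timp3 were among the most abundant of these genes, and Timp2, Timp3 and Timp4 were each highest in a different cell type. Timp2 (chr11:118301061-118355411), which blocks MMP2 and also helps MMP14 to activate it, was at 2088, 2803 and 3213 CPM in DRG. Astrocytes had 1001, 1167 and 996 CPM and OPC 395, 316 and 435 CPM, and the groups did not overlap. Timp2 was higher in DRG than in astrocytes (log2 1.36, SE 0.22, adjusted p = 0.000675) and OPC (log2 2.82, SE 0.23, adjusted p = 1.57e-05), and lower in OPC than in the astrocytes (log2 −1.47, SE 0.22, adjusted p = 0.00067). Timp3 (chr10:86300412-86349505), the inhibitor that binds to the matrix and also blocks ADAM and ADAMTS proteases, was at 778, 2197 and 3425 CPM in astrocytes. It was at 242, 41.3 and 129 CPM in DRG and at 107, 15.9 and 23.3 CPM in OPC, so all astrocyte libraries lay above the other 6, with DRG and OPC overlapping. Timp3 was lower in DRG (log2 −3.96, SE 0.95, adjusted p = 0.00549; −4.64 without DRG replicate 1) and in OPC (log2 −5.46, SE 1.02, adjusted p = 0.002; −6.76 without OPC replicate 1) than in astrocytes. Its difference between DRG and OPC (log2 1.50, SE 0.86, adjusted p = 0.159) was 2.80 without OPC replicate 1 (adjusted p = 0.0221). In astrocytes Timp3 was lowest in replicate 1, the library with the fewest fibroblast and mural markers (427 CPM against 4967 and 6240). The part of those cells was not tested.

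Timp4 (chr6:115244444-115252205), an inhibitor known from brain and heart, was at 89.4, 69.6 and 129 CPM in OPC and at 42.5, 36.7 and 41.9 CPM in astrocytes. The 3 DRG libraries had 3, 4 and 2 counts, or 0.0791 ± 0.0253 CPM (SD, n = 3). Timp4 was lower in DRG than in astrocytes (log2 −8.96, SE 0.37, adjusted p = 6.49e-07) and OPC (log2 −10.21, SE 0.39, adjusted p = 1.26e-06), while the OPC level exceeded that of astrocytes (log2 1.25, SE 0.24, adjusted p = 0.0025). Timp1, an inhibitor that rises in injury and that blocks several membrane-type proteases poorly, is listed with 2 transcripts, and the reads they share were set aside. What was left, 147 counts in all, does not measure the level of the gene. These isoform-specific reads were 6, 49 and 38 counts in astrocytes, 31, 5 and 15 in DRG, and 0, 2 and 1 in OPC. They were called lower in OPC than in the astrocytes (adjusted p = 0.00997) and DRG (adjusted p = 0.0163), the latter lost without DRG replicate 1 (0.0593) or OPC replicate 1 (0.0522).

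**Figure D5:**
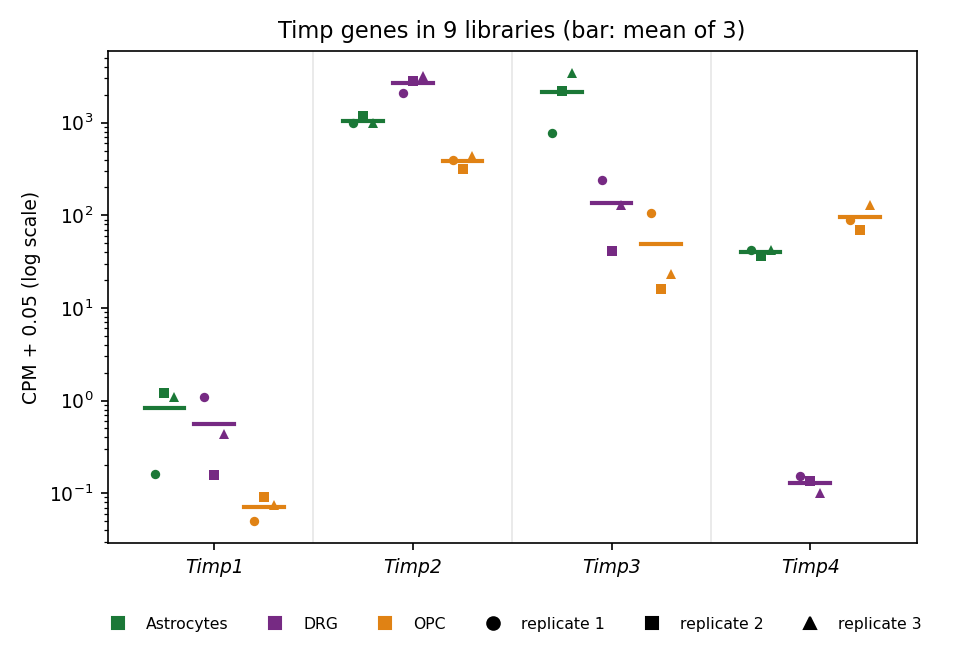
CPM plus 0.05 on a log y axis for Timp1 to Timp4 (x axis) in the 9 libraries, coloured by cell type and shaped by replicate, with a bar at each mean; Timp1 shows isoform-specific reads only. Timp2 is highest in DRG (2088 to 3213 CPM), Timp3 in astrocytes (778 to 3425 CPM) and Timp4 in OPC (69.6 to 129 CPM), with Timp4 at the bottom of the plot in DRG.

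Per kilobase, Timp2 was 95.8 ± 3.73% of the sum of Timp2, Timp3 and Timp4 in DRG, 79.3 ± 5.56% in OPC and 42.6 ± 17.2% in astrocytes (SD, n = 3). Timp3 was 56.3 ± 17.8% of it in astrocytes, 4.18 ± 3.73% in DRG and 7.42 ± 7.04% in OPC. Timp4 made up 13.3 ± 2.53% in OPC and 1.12 ± 0.545% in astrocytes. The largest level per kilobase was that of Timp3 in astrocytes (452 CPM per kb), of Timp2 in DRG (728) and of Mmp15 in OPC (327). These are means: in Astrocytes replicate 1 Timp2 was above Timp3, at 61.0% and 37.2% of the Timp2 to Timp4 sum. The summed level of these 3 inhibitors was set over that of the Mmp and Adamts genes counted through a single transcript. This ratio was 3.60 ± 1.27 in astrocytes, 3.55 ± 0.925 in DRG and 0.291 ± 0.0776 in OPC. The ratio was above 1 in every astrocyte and DRG library (2.51 to 5.06) and under 1 in every OPC library (0.209 to 0.364). It is a ratio of mRNA levels, not of proteins or of activity.

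Timp1, Timp3 and Timp4 lie inside synapsin genes, on the opposite strand: Timp1 in Syn1 (chrX:20860511-20921004), Timp3 in Syn3 (chr10:86055125-86498896) and Timp4 in Syn2 (chr6:115134902-115282006). The synapsins, which coat synaptic vesicles, were highest in DRG, with Syn2 at 217 ± 45.8 CPM there, 34.4 ± 3.45 in astrocytes and 59.3 ± 26.5 in OPC (SD, n = 3). Timp4 was lowest in DRG, so the nested pair had different orders. Syn3 was at 19.3 ± 7.20 CPM in DRG, 4.23 ± 1.99 in astrocytes and 11.7 ± 4.88 in OPC. Annotated exons of Syn3 cover 21.3% of the exonic bases of Timp3, and those of Syn2 cover 1.53% of those of Timp4. Exons on the opposite strand also cover 22.3% of Mmp19 (Tmem198b), 12.0% of Mmp28 (1700020L24Rik), 10.6% of Adamts8 (Gm29724) and 9.18% of Adamts9 (A730049H05Rik).

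Other genes activate or restrain these proteases. Of 20 tested genes of plasminogen activation, proprotein cleavage and inhibition, 3 were higher and 10 lower in DRG than in astrocytes (27.4% and 32.8% of all genes tested). In DRG against OPC 9 were higher and 5 lower (28.4% and 31.1% of all genes), and in OPC against astrocytes 2 were higher and 11 lower (26.3% and 25.5%). Their median log2 differences were −1.34, 0.83 and −1.58. Plat, the tissue plasminogen activator, was at 193 ± 75.0 CPM in astrocytes, 39.7 ± 13.8 in DRG and 75.2 ± 9.01 in OPC. Plat was lower in DRG (log2 −2.28, adjusted p = 0.000407) and in OPC (log2 −1.36, adjusted p = 0.00751) than in astrocytes. Its inhibitors went separate ways: Serpini1, the neuronal inhibitor, was at 412 ± 41.5 CPM in DRG against 7.45 ± 1.45 in astrocytes and 10.9 ± 3.89 in OPC, and Serpine2 was at 1392 ± 324 CPM in OPC against 242 ± 68.5 and 53.0 ± 24.6 in astrocytes and DRG. Reck, a membrane-anchored inhibitor of MMP14, MMP2 and MMP9, was at 25.3 ± 7.58 CPM in astrocytes, 9.25 ± 1.80 in DRG and 8.87 ± 4.01 in OPC. Reck was lower in DRG (log2 −1.45, adjusted p = 0.0105) and in OPC (log2 −1.51, adjusted p = 0.0107) than in astrocytes. Thbs1, a matrix protein that binds MMP2, was at 1821 ± 418 CPM in astrocytes, 54.2 ± 53.1 in DRG and 2.13 ± 1.56 in OPC. A2m, the general protease trap, was at 367 ± 80.7, 21.4 ± 7.12 and 0.601 ± 0.286 CPM in the same order.

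The proteoglycans Bcan and Ncan were lower in DRG than in either glial culture. Of 15 tested substrates and matrix proteins, 7 were lower and 3 higher in DRG than in astrocytes (32.8% and 27.4% of all genes). In DRG against OPC 7 were lower and 6 higher (31.1% and 28.4%), and in OPC against astrocytes 5 were lower and 4 higher (25.5% and 26.3%; median log2 −0.69, −1.82 and −0.91). Bcan, the core protein of brevican, was at 515 ± 277 CPM in OPC, against 104 ± 11.3 in astrocytes and 3.57 ± 2.28 in DRG. It was higher in OPC than in the astrocytes (log2 2.30, adjusted p = 0.0039) and lower in DRG than in either (adjusted p = 8.47e-05 and 1.91e-05). Ncan, the core of neurocan, was at 1883 ± 1089 CPM in astrocytes, 911 ± 262 in OPC and 74.6 ± 13.6 in DRG, and was lower in DRG than in astrocytes (log2 −4.66, adjusted p = 9.06e-05) and than in OPC (log2 −3.61, adjusted p = 0.000299). Acan, the core of aggrecan, was at 4.23 ± 1.10 CPM in OPC and under 1 CPM in the other cell types. Hapln4, a link protein of perineuronal nets, was highest in DRG at 62.1 ± 30.7 CPM (log2 3.42, adjusted p = 0.00046 against astrocytes; 3.80, 0.000276 against OPC).

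ADAM proteases, the membrane-bound relatives that shed cell-surface proteins, had 4 higher and 8 lower of 15 tested genes, partners included, in DRG against astrocytes (27.4% and 32.8% of all genes). The numbers were 5 and 3 in DRG against OPC (28.4% and 31.1%), and 1 and 5 in OPC against astrocytes (26.3% and 25.5%; median log2 −1.11, 0.12 and −0.49). The higher genes in DRG included Adam22, Adam23 and Adam11, which lack protease activity and act as synaptic receptors. Adam22 was at 536 ± 150 CPM in DRG, 69.0 ± 20.7 in astrocytes and 79.6 ± 44.8 in OPC, and Adam23 at 357 ± 104, 8.43 ± 3.04 and 20.4 ± 2.86 CPM. Adam12, an active protease, was at 652 ± 161 CPM in OPC, against 183 ± 162 in astrocytes and 4.49 ± 1.73 in DRG. Adam10, the main sheddase of Notch and N-cadherin, was at 309 ± 62.1 CPM in astrocytes, 220 ± 83.9 in OPC and 143 ± 34.5 in DRG. Only its difference between DRG and astrocytes passed (log2 −1.11, SE 0.32, adjusted p = 0.0128).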

How the data were processed

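Reads of stranded mRNA libraries were handled with TopHat2 and HTSeq on build mm10, per the submitters' processing notes; the sources used here do not give versions, annotation release or strand setting. The authors deposited raw read counts per RefSeq transcript, in 9 files of 33787 accessions each; their 5 totals of unassigned reads were left out; ambiguous reads alone were 22.0 to 24.7% of all reads. Reads shared by transcripts of a gene were among those set aside, so the 8 member genes with several accessions were counted by isoform-specific reads only. Accessions were named from RefSeq (33315, GRCm38.p6) and GENCODE vM21 (193), 279 kept their identifier, and counts were added per gene. Mmp27 was not analysed here.

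Genes were tested with edgeR 4.0.16 (R 4.3.3) by its quasi-likelihood F-test on all 9 libraries in 1 fit (TMM factors, filterByExpr with a minimum count of 10, 6 residual degrees of freedom), with Benjamini-Hochberg adjustment over 14848 genes. The labels call the libraries biological replicate experiments without saying more, so p-values measure the spread between these libraries. Members with a mean of at least 5 CPM in a cell type (27) are given by library; the rest by highest mean, counts and calls. The members, the pathway and marker lists and the alternatives were chosen with earlier results of these data known. Alternatives were DESeq2 1.42.0, other scalings, no filter, 6 libraries, a replicate block, the most abundant accession, a 2-fold minimum and libraries left out. The test was checked on simulated data. Transcript lengths and exon overlaps came from GENCODE vM21, gene positions and promoters from RefSeq.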

Additional observations from a re-analysis of the deposited data

How the results depend on the processing

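Over 18 alternatives each, every count of called genes stayed within 1.5 times the reported one: 6 to 8 higher and 13 to 20 lower for DRG against astrocytes, 12 to 15 and 9 to 13 for DRG against OPC, and 7 to 9 and 15 to 21 for OPC against astrocytes. With each library left out in turn the ranges were 6 to 7 and 13 to 18, 12 to 14 and 10 to 13, and 7 to 9 and 15 to 21. The labels do not say whether replicate numbers pair the libraries. Correlations were −0.0357 to 0.128 for same-numbered libraries and −0.130 to 0.0777 for the others, which at 3 libraries per group does not settle it. A replicate block gave 6 and 15, 13 and 11, and 7 and 17. With the block, adjusted p was 0.0635 for Adamts14, 0.0589 for Adamts20, 0.0683 for Adamts5, 0.0602 for Mmp17 and 0.0675 for Mmp9 in DRG against astrocytes, 0.0674 for Adamts5 in DRG against OPC, and 0.0522 for Adamts9 and 0.112 for Mmp9 in OPC against astrocytes, all calls without it. For Adamts5 in DRG, relative log expression size factors gave 0.0525 against astrocytes and 0.0538 against OPC, and 6 libraries gave 0.0622 against astrocytes. The 6 libraries alone also gave 0.0597 for Adamts20 and 0.0665 for Mmp9 there. With Astrocytes replicate 1 and OPC replicate 3 left out together, adjusted p was 0.170 for Adamts20, 0.0773 for Mmp17 and 0.609 for Mmp9 in DRG against astrocytes, 0.173 for Mmp15 in DRG against OPC, and 0.128 for Adamts9 and 0.367 for Mmp9 in OPC against astrocytes. The same setting called Mmp16 (DRG against astrocytes, 0.0190), Adamts20 (DRG against OPC, 0.0048) and Adamtsl2 (0.0079 in DRG against OPC, 0.0078 in OPC against astrocytes).

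No called difference changed sign under any alternative for the 27 genes that reached a mean of 5 CPM. For the other 11 tested genes, this was looked at with left-out libraries alone. Uncalled differences did change sign, and the cause was not tested. In OPC against astrocytes the log2 value of Adamts5 was −0.0047 with DESeq2, −0.0046 with relative log expression factors, −0.023 with library size alone, −0.029 with 6 libraries, −0.024 with the replicate block and −0.12 without Astrocytes replicate 1 and OPC replicate 3; that of Adamts6 was −0.010, −0.0099, −0.014, −0.035 and −0.24 in the first 5 settings. With the block, Mmp9 was −0.27 in DRG against OPC and Adamts20 was 0.065 in OPC against astrocytes. With both libraries left out, Mmp12 was 0.36 in DRG against astrocytes, and Adamts15 was −0.38 and Adamts20 1.29 in OPC against astrocytes. With each library left out in turn, ranges that crossed 0 in DRG against astrocytes were −0.014 to 1.20 for Adamts4, −2.58 to 0.26 for Mmp12, −1.32 to 0.32 for Adamtsl2, −0.72 to 2.37 for Mmp13 and −1.02 to 0.27 for Adamts2. In DRG against OPC they were −0.52 to 0.76 for Adamts14, −0.11 to 0.59 for Adamtsl1, −0.24 to 1.20 for Mmp9 and −0.76 to 0.42 for Adamts18. In OPC against astrocytes they were −0.62 to 0.59 for Adamts4, −0.46 to 0.42 for Adamts5, −0.46 to 0.34 for Adamts6, −0.33 to 0.48 for Adamts15, −0.90 to 1.14 for Adamts20, −1.34 to 2.51 for Mmp12, −2.38 to 0.92 for Mmp13, −0.35 to 0.91 for Adamts17 and −0.68 to 1.94 for Mmp25. Library size alone moved the median of all genes by −0.26 in DRG against astrocytes, −0.15 in DRG against OPC and −0.10 in OPC against astrocytes, and relative log expression factors moved it by 0.17 in DRG against OPC. With few counts, as for Timp4 in DRG, a fold depends on the small constant that the fit adds.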

Other observations

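Of 11 tested cathepsins and cystatins, 9 were lower in OPC than in astrocytes and none was called higher (25.5% and 26.3% of all genes tested; median log2 −1.77, against 0.09 for all genes). In DRG against astrocytes 2 were higher and 3 lower (27.4% and 32.8% of all genes), and in DRG against OPC 4 were higher and 1 lower (28.4% and 31.1%). Ctsl, cathepsin L, was at 1419 ± 256 CPM in DRG, 489 ± 19.2 in astrocytes and 247 ± 147 in OPC (SD, n = 3), and was higher in DRG than in astrocytes (log2 1.54, SE 0.36, adjusted p = 0.00532) and OPC (log2 2.52, SE 0.38, adjusted p = 0.00041). Cst3, cystatin C, the secreted inhibitor of cathepsins, was at 2590 ± 137 CPM in astrocytes, 276 ± 92.5 in DRG and 339 ± 139 in OPC. Its level was lower in DRG (log2 −3.23, adjusted p = 9.6e-05) and in OPC (log2 −2.93, adjusted p = 0.000269) than in astrocytes. Ctss, a cathepsin of microglia and macrophages, was at 3.79 ± 4.21 CPM in astrocytes, where the sum of 10 microglia genes ran from 457 to 2811 CPM. If Ctss is listed with several transcripts, the reads they share were set aside and this value does not measure its level. The part of those cells in the cathepsin levels was not tested.

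Of 7 tested genes of procollagen processing and ADAMTS relatives, 2 were higher and 1 lower in DRG than in astrocytes (27.4% and 32.8% of all genes), 4 were higher in DRG than in OPC with none called lower (28.4% and 31.1%), and in OPC 2 were lower than in the astrocytes with none called higher (25.5% and 26.3%). Bmp1, the main procollagen C-proteinase, was at 5.82 ± 2.10 CPM in astrocytes, 4.18 ± 0.837 in DRG and 3.33 ± 1.17 in OPC, and no comparison of it passed (adjusted p = 0.119 to 0.499). Pcolce, its enhancer, was at 12.8 ± 3.64 CPM in astrocytes, 10.5 ± 3.73 in DRG and 1.49 ± 0.712 in OPC. It was lower in OPC than in the astrocytes (log2 −3.10, adjusted p = 0.00081) and higher in DRG than in OPC (log2 2.82, adjusted p = 0.000866).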
